A study of Branchiostoma lanceolatum with 24 samples.

Results

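Embryos of Branchiostoma lanceolatum, the European amphioxus and a member of the cephalochordates, were sequenced as bulk RNA when collected at 14 hours post fertilization (hpf) after 9 h in 50 µM SU5402 or in 0.1% DMSO. Treatment began at 5 hpf. The comparison holds 4 of the 24 libraries of the study, 2 with SU5402 and 2 with DMSO, chosen by the treatment, the time of treatment and the stage in their labels. Each library was made from a mix of whole embryos. The labels give no strain, and they do not say whether the SU5402 medium also held DMSO or whether the replicates came from separate spawnings or dishes. The spread behind the p-values is that between these libraries, and it may be technical. For comparison the report uses the embryos of the same treatment collected at 8 and 11 hpf, after 3 and 6 h, and those treated from 15.5 hpf and collected at 18.5, 21.5 and 24.5 hpf, also after 3, 6 and 9 h. Each of these groups is a further 2 libraries with SU5402 and 2 with DMSO at the same doses.

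SU5402 is a compound that inhibits the kinase activity of fibroblast growth factor (FGF) receptors, which are receptor tyrosine kinases. Secreted FGF ligands bind these receptors, which signal inside the cell mainly through Ras and the kinase ERK to change transcription. In chordate embryos FGF signalling takes part in mesoderm formation and axis elongation, and in amphioxus it is needed for the most anterior somites, the segmented blocks of mesoderm. SU5402 can also block other receptor tyrosine kinases, so a difference between the groups is a difference with the compound and not with 1 receptor.

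The measured features were 96094 transcriptome contigs, each an assembled piece of transcript known by a number. The identifiers matched 0 genes of the 29133 listed in the RefSeq annotation of the species, so contigs carry no gene name, function or sequence here. Lists of FGF pathway, mesoderm and xenobiotic response genes could not be counted for this reason, and neither the FGF receptor nor markers of the embryo's tissues could be checked. A gene can be split over several contigs, reads can be shared between near-identical copies of a gene, and the library protocol does not mark strand. Counts of contigs are thus not counts of genes. Levels are CPM, read counts of a contig relative to the scaled library size, not per length, and are compared between libraries only.

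The DMSO libraries at 14 hpf held 33846253 and 30327787 counted reads, and the SU5402 libraries held 33435753 and 30157190. The other 8 libraries of the early series held 14885597 to 39988564 reads. The spread between replicates, as biological coefficient of variation, was 26.2% for the DMSO pair and 25.7% for the SU5402 pair, within the range of 23.7% to 30.4% over the early groups. Chi-square per degree of freedom between the replicates was 17.9 for DMSO and 8.22 for SU5402, above the value of about 1 that sampling noise gives, so all 4 libraries were counted separately. At similar depth the SU5402 libraries had reads in more contigs, 91891 and 90233, than the DMSO libraries, with 86729 and 86814. The same held for contigs with at least 10 reads, which numbered 67912 and 63054 with SU5402 and 58525 and 57910 with DMSO.

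Whole embryos at 14 hpf differed with SU5402 in 2 unlike ways. Many contigs that were near silent in DMSO embryos rose steeply, and a smaller number of well expressed contigs fell, mostly by a modest amount. Of 77193 contigs tested with edgeR's quasi-likelihood test on the 12 early libraries, 10086 (13.1%) rose and 5591 (7.24%) fell at a Benjamini-Hochberg adjusted p under 0.05. The contigs that rose had a median level of 0.142 CPM in DMSO embryos and 1.29 CPM in SU5402 embryos. Those that fell had a median of 10.2 CPM in DMSO embryos and 4.8 CPM in SU5402 embryos. In RNA of whole embryos, fewer cells of a type and less RNA per cell cannot be told apart.

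The sizes of the changes differed between the directions. The median log2 fold change was 2.78 over the contigs that rose, with quartiles of 1.57 and 4.51, and -1.01 over those that fell, with quartiles of -1.43 and -0.72. Over all contigs tested it was -0.00448. More than 4-fold changes made up 66% of the rises, 6657 contigs, but 9.84% of the falls, 550 contigs. More than 10-fold changes were 4064 of the rises and 92 of the falls. These sizes describe contigs that passed the test, which at low levels asks for a larger change.

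The balance of the directions shifted with expression level. Below a mean of 1 CPM over the early libraries, 14.9% of 35625 contigs rose and 2.49% fell. From 1 to 10 CPM, 11.5% of 30347 contigs rose and 8.26% fell. From 10 to 100 CPM the order was the other way, with 11% of 9657 contigs risen and 19.1% fallen. Above 100 CPM, 14.3% of 1564 contigs rose and 22.7% fell. A contig with few reads in DMSO embryos has little room to fall. The filter also keeps contigs that reach its minimum in a single pair of libraries, such as a SU5402 pair. The mean level includes the libraries of 14 hpf themselves. The part of these limits in the shift was not tested.

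**Figure D1:**
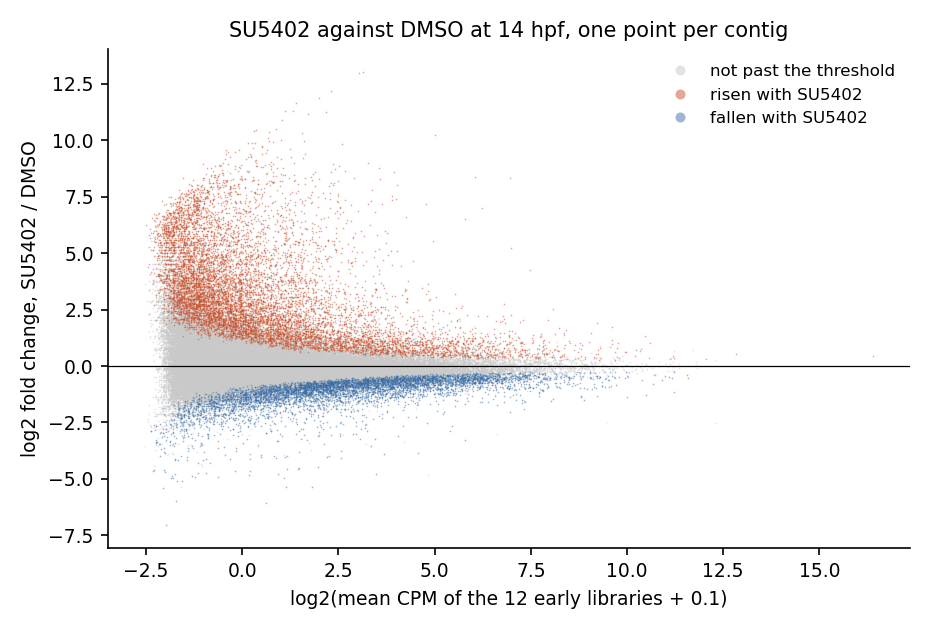
Each point is 1 of 77193 contigs, with its log2 fold change of SU5402 over DMSO at 14 hpf against the log2 of its mean CPM over the 12 early libraries plus 0.1. The 10086 risen contigs (orange) reach large fold changes at low levels, and the 5591 fallen contigs (blue) lie closer to 0 and reach higher levels.

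Scaling set part of this balance. Of the calls, 64.3% were rises with trimmed mean of M-values (TMM) scaling, against 76% with library totals (11830 rises and 3740 falls) and 74.4% with TMM factors from contigs of at least 10 CPM (11541 and 3976). Under these scalings the log2 fold changes of all contigs had medians of 0.126 and 0.11. The counts also fell when 1 library was left out. Such a fit holds a lone library whose spread is taken from the other groups, and the cause of the lower counts was not tested. Without DMSO replicate 1, 5480 contigs rose and 2492 fell, and without DMSO replicate 2 the counts were 5515 and 2185. They were 5753 and 2008 without SU5402 replicate 1, and 7307 and 2288 without SU5402 replicate 2.

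The contigs with the smallest p in each direction show both kinds of change. ContigAmph24501 stood at 1.44 and 1.63 CPM in the DMSO libraries and at 501 and 503 CPM in the SU5402 libraries of 14 hpf, or 48 and 50 against 18450 and 16404 reads. The SU5402 libraries were thus far above the DMSO libraries, and the values within each pair lay close together. The choice of ContigAmph24501 by the smallest p in these libraries favours both. Its log2 fold change was 8.35 (SE 0.18, adjusted p = 1.7e-08, edgeR). ContigAmph54911 had 4 reads in each DMSO library and 6295 and 4605 reads in the SU5402 libraries, and its log2 fold change was 10.2 (adjusted p = 1.7e-08, edgeR). With so few DMSO reads the model's SE of 0.24 understates counting error. The ratio of summed reads, scaled by library size, was 1310, and counting error alone allows 662 to 3030 (95% exact interval).

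In both contigs the difference was present at 8 hpf, and the fitted effect was higher at 11 and at 14 hpf. The change of the effect from 11 to 14 hpf passed the test for ContigAmph24501, at 1.34 (SE 0.23, adjusted p = 0.021, edgeR), but not for ContigAmph54911, at 2.24 (SE 0.52, adjusted p = 0.28, edgeR). ContigAmph24501 had a mean of 59.2 ± 0.857 CPM (SD, n = 2) in SU5402 embryos at 8 hpf, 177 ± 6.5 CPM (SD, n = 2) at 11 hpf and 502 ± 1.77 CPM (SD, n = 2) at 14 hpf, while its DMSO means stayed between 1.39 and 2.18 CPM. Its log2 fold change was 4.76 at 8 hpf and 7.01 at 11 hpf. ContigAmph54911 had a mean of 3.19 ± 0.577 CPM (SD, n = 2) in SU5402 embryos at 8 hpf, 32 ± 0.337 CPM (SD, n = 2) at 11 hpf and 156 ± 20.9 CPM (SD, n = 2) at 14 hpf. The DMSO and SU5402 libraries of these contigs did not overlap at any of the 3 stages, which at 14 hpf their choice favours.

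The contigs that fell with the smallest p had different histories. ContigAmph14018 stood at 179 and 163 CPM in the DMSO libraries and at 17.6 and 18.2 CPM in the SU5402 libraries of 14 hpf, and its log2 fold change was -3.26 (SE 0.15, adjusted p = 2.6e-06, edgeR). At 8 and 11 hpf its log2 fold change did not pass the test, at -0.0495 (SE 0.13, adjusted p = 0.85, edgeR) and -0.267 (SE 0.14, adjusted p = 0.2, edgeR). DMSO embryos went from a mean of 28 ± 5.15 CPM (SD, n = 2) at 11 hpf to 171 ± 11.2 CPM (SD, n = 2) at 14 hpf, and SU5402 embryos from 23.3 ± 1.49 CPM (SD, n = 2) to 17.9 ± 0.409 CPM (SD, n = 2). ContigAmph14018 thus separated between 11 and 14 hpf, where the DMSO level climbed and the SU5402 level did not.

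ContigAmph89888 climbed in both groups. It stood at 276 and 264 CPM in the DMSO libraries and at 91.7 and 86.6 CPM in the SU5402 libraries of 14 hpf, for which the log2 fold change was -1.60 (SE 0.095, adjusted p = 8e-06, edgeR). Its DMSO mean went from 13.4 ± 0.113 CPM (SD, n = 2) at 8 hpf through 91.8 ± 3.46 CPM (SD, n = 2) at 11 hpf to 270 ± 8.58 CPM (SD, n = 2). The SU5402 mean went from 9.4 ± 0.145 CPM (SD, n = 2) through 28.9 ± 0.824 CPM (SD, n = 2) to 89.2 ± 3.61 CPM (SD, n = 2), so that SU5402 embryos at 14 hpf were near the level of DMSO embryos at 11 hpf. The log2 fold change was -0.51 at 8 hpf (adjusted p = 0.0062, edgeR) and -1.67 at 11 hpf (adjusted p = 1.1e-05, edgeR).

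**Figure D2:**
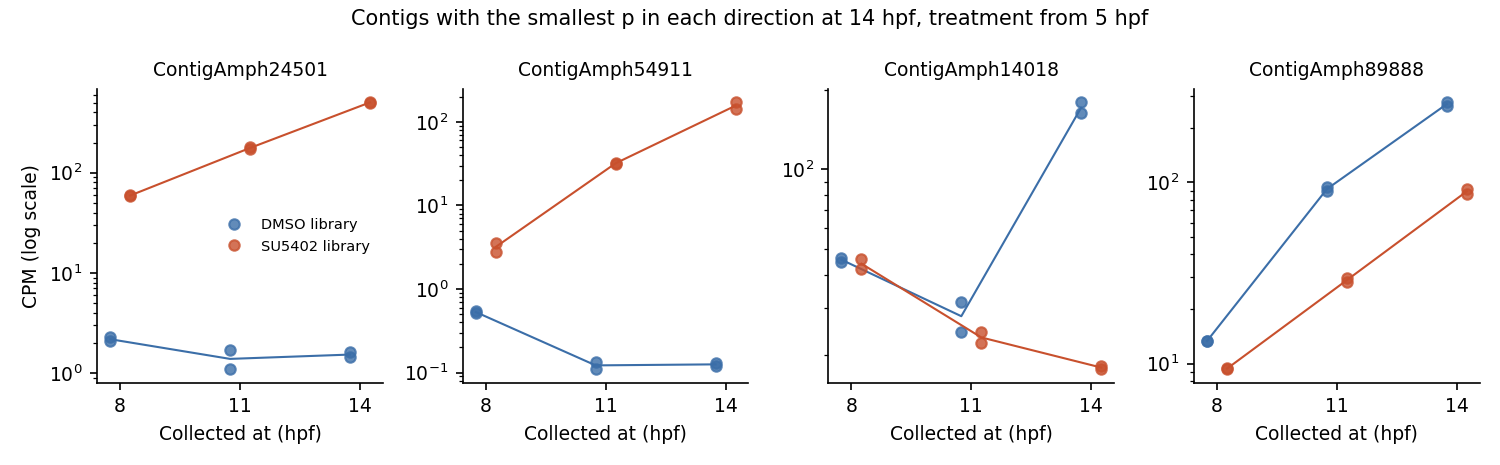
CPM on a log axis in each of the 12 early libraries for the 2 contigs with the smallest p in each direction at 14 hpf, with lines through the mean of 2 libraries per group. SU5402 libraries of ContigAmph24501 and ContigAmph54911 lie above DMSO at all 3 stages, ContigAmph14018 separates at 14 hpf, and ContigAmph89888 climbs in both groups at a lower level with SU5402.

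Reads that appeared in 1 condition only were almost all in SU5402 embryos. At 14 hpf, 675 contigs (0.702% of 96094) had 0 reads in both DMSO libraries and at least 10 reads in each SU5402 library. The reverse held for 2 contigs (0.00208%). A count of 0 in a library allows up to 3 reads. The 675 contigs had a median of 28 reads in SU5402 replicate 1 and of 19 in replicate 2, and at most 1607 and 1109. Of the 675, 673 entered the test and 672 of them rose, which their choice from the same libraries all but fixed. Contigs with 0 reads in both libraries numbered 5458 in DMSO and 2713 in SU5402 embryos.

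The counts of such contigs moved with the cutoff and the libraries while keeping the order of the conditions. With at least 5 reads they were 1230 and 24, and with at least 20 reads 298 and 0. They were 1356 and 5 without DMSO replicate 1, 1265 and 7 without DMSO replicate 2, 766 and 23 without SU5402 replicate 1, and 1097 and 13 without SU5402 replicate 2. The same rule gave 356 contigs with SU5402 only at 8 hpf and 764 at 11 hpf, against 2 and 1 with DMSO only. In embryos treated from 15.5 hpf it gave 285, 139 and 75 contigs at 18.5, 21.5 and 24.5 hpf, against 2, 2 and 12.

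The 675 contigs had few or no reads in DMSO embryos of the earlier stages as well. At 8 hpf, 243 of them (36%) had 0 reads in both DMSO libraries, against 6.06% of all contigs, and 12 had at least 10 reads in each. At 11 hpf, 381 (56.4%) had 0 reads, against 8.43% of all contigs, and 0 had at least 10 in each. With SU5402, 364 (53.9%) had at least 10 reads in each library at 8 hpf and 432 (64%) at 11 hpf, against 61% and 51.9% of all contigs. In the later treatment 165 (24.4%) did so at 18.5 hpf, 56 (8.3%) at 21.5 hpf and 72 (10.7%) at 24.5 hpf, against 63.5%, 51.8% and 65.4% of all contigs. Depth differed between these libraries, from 10866511 to 39988564 reads over the series, and its part in these shares was not tested.

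The contigs called at 14 hpf held a large part of all reads. Contigs that rose took 11% and 11.5% of the reads of the DMSO libraries and 21% and 20.1% of the reads of the SU5402 libraries. Contigs that fell took 29.4% and 30.4% with DMSO and 19.8% and 20% with SU5402. ContigAmph3515, the contig with the most reads, was picked after its values were seen, for the largest gain in read share with SU5402 at 14 hpf. It alone held 4.71% and 4.9% of the DMSO reads and 7.53% and 6.95% of the SU5402 reads. Its log2 fold change was 0.46 (SE 0.083, adjusted p = 0.0039, edgeR). The shares of risen and fallen contigs were chosen by the test at 14 hpf and describe its calls. In the other early DMSO libraries, which are not in that contrast but share its fit, the contigs that rose held 22.5% and 22.9% of reads at 8 hpf and 19% and 19.2% at 11 hpf. The contigs that fell held 15% in each DMSO library at 8 hpf and 20.3% and 20.2% at 11 hpf. In the SU5402 libraries the contigs that rose held 26.3% and 26.7% at 8 hpf and 28.8% and 26.7% at 11 hpf. The contigs that fell held 12.5% and 12.7% of SU5402 reads at 8 hpf and 13.7% and 14.1% at 11 hpf. Choosing both sets by the 14 hpf contrast sets DMSO embryos of 14 hpf apart. These shares therefore cannot place SU5402 embryos of 14 hpf by stage.

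Contigs called at 14 hpf were divided by their calls at 8 and 11 hpf. Of the 10086 contigs that rose at 14 hpf, 3813 (37.8%) had also risen at 8 and 11 hpf, 2885 (28.6%) at 11 hpf but not 8 hpf, and 221 (2.19%) at 8 hpf but not 11 hpf. A further 2658 (26.4%) were called at 14 hpf alone, and 509 (5.05%) had fallen at an earlier stage. Of the 5591 contigs that fell, 1269 (22.7%) had also fallen at 8 and 11 hpf, 1193 (21.3%) at 11 hpf and 317 (5.67%) at 8 hpf. A further 2590 (46.3%) were called at 14 hpf alone, and 222 (3.97%) had risen earlier. A missing call at 8 or 11 hpf is not a tested change between stages. In the test of the change from 11 to 14 hpf, given below, 748 contigs had a higher and 329 a lower effect at 14 hpf. The stages have separate libraries, DMSO included. Against these shares, 13.9% of all contigs tested rose and 8.94% fell at 11 hpf, and 8.34% rose and 8.72% fell at 8 hpf.

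Read forward, a larger share of the early rises than of the early falls was called again at 14 hpf. Of 6441 contigs risen at 8 hpf, 62.8% were also risen at 14 hpf and 2.69% had fallen, and of 10694 risen at 11 hpf, 63% were also risen and 0.748% had fallen. Of 6731 contigs fallen at 8 hpf, 23.6% were also fallen at 14 hpf and 6.45% had risen. Of 6903 fallen at 11 hpf, 36.1% were also fallen and 2.61% had risen. Of all contigs tested, 13.1% rose and 7.24% fell at 14 hpf. Rises were also the larger changes, with a median log2 fold change of 2.63 at 8 hpf against -0.89 for falls, and larger changes pass a test again more easily.

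The contigs called at 14 hpf had smaller effects earlier, as their choice by the value at 14 hpf favours. Over the contigs that rose at 14 hpf the median log2 fold change was 1.38 at 8 hpf, 2.47 at 11 hpf and 2.78 at 14 hpf. Over those that fell it was -0.39, -0.65 and -1.01. Contigs chosen at an earlier stage went the other way. The median went from 2.63 at 8 hpf to 2.51 at 14 hpf over contigs risen at 8 hpf, and from 2.92 at 11 hpf to 2.26 over those risen at 11 hpf. Over contigs fallen at 8 hpf it went from -0.89 to -0.25, and over those fallen at 11 hpf from -0.96 to -0.48. Over all contigs tested the medians were 0.00221, 0.0624 and -0.00448. Across the 77193 contigs, which are not independent replicates, log2 fold changes at 14 hpf correlated with those at 11 hpf with Pearson's r = 0.77 and with those at 8 hpf with r = 0.633. Over the 11221 contigs of at least 10 CPM, r was 0.669 and 0.394.

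**Figure D3:**
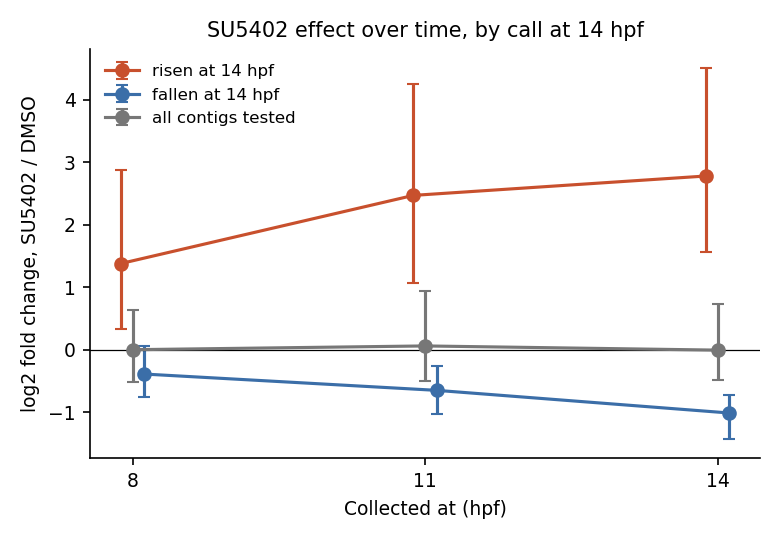
Median log2 fold change of SU5402 over DMSO at 8, 11 and 14 hpf for contigs risen at 14 hpf, fallen at 14 hpf and all contigs tested, with bars from the lower to the upper quartile over contigs. The risen contigs go from a median of 1.38 to 2.78, the fallen contigs from -0.39 to -1.01, and all contigs stay near 0.

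The change of the effect from 11 to 14 hpf was tested as an interaction in the same fit. In it, 748 contigs (0.969%) had a higher log2 fold change at 14 than at 11 hpf and 329 (0.426%) a lower one. Among the 748, 327 (43.7%) had fallen at 11 hpf and were no longer called at 14 hpf, 201 (26.9%) were not called at 11 hpf and had risen at 14 hpf, and 175 (23.4%) had gone from fallen to risen. Among the 329, 127 (38.6%) had risen at 11 hpf and were not called at 14 hpf, 110 (33.4%) were not called at 11 hpf and had fallen at 14 hpf, and 73 (22.2%) had gone from risen to fallen. Choosing contigs by the change between these stages favours such classes. Of all contigs tested, 13.9% rose and 8.94% fell at 11 hpf, and 13.1% rose and 7.24% fell at 14 hpf. Libraries of 11 hpf had 15 PCR cycles and those of 14 hpf had 12, in both conditions alike.

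Levels in the 2 sets were described for each condition. In the 748 contigs the median DMSO level was 14.9 CPM at 8 hpf, 34 CPM at 11 hpf and 21.8 CPM at 14 hpf, while the median SU5402 level was 10.4, 18.8 and 34.4 CPM. Their DMSO level thus peaked at 11 hpf and their SU5402 level was at its highest at 14 hpf. In the 329 contigs the median DMSO level was 5.73, 2.2 and 8.03 CPM, with its low point at 11 hpf, and the median SU5402 level was 9.91, 4.99 and 3.67 CPM. These medians describe contigs that the test chose by their levels at 11 and 14 hpf in both conditions. That choice favours such a DMSO peak and low point, so the medians cannot show in which embryos the change lay.

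Among the contigs with the smallest p in each direction of this test, ContigAmph96 had a DMSO peak at 11 hpf. It stood at 103 and 104 CPM in the DMSO libraries and 35.3 and 41.9 CPM in the SU5402 libraries at 11 hpf, and at 16.5 and 15.9 CPM against 83.7 and 107 CPM at 14 hpf. Its log2 fold change went from -1.42 to 2.56, a change of 3.98 (SE 0.22, adjusted p = 0.00026, edgeR). The SU5402 level at 14 hpf was thus near the DMSO level of 11 hpf. ContigAmph19400 fell in DMSO embryos from 326 and 376 CPM at 11 hpf to 105 and 109 CPM at 14 hpf and remained at 316 and 331 CPM in SU5402 embryos, where it had been at 349 and 338 CPM. Its effect changed by 1.63 (SE 0.13, adjusted p = 0.0014, edgeR).

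ContigAmph7207 had the opposite course. It stood at 6.62 and 5.3 CPM in the DMSO libraries and 48.6 and 34 CPM in the SU5402 libraries at 11 hpf, and at 31.6 and 27.5 CPM against 10.5 and 9.08 CPM at 14 hpf. Its log2 fold change went from 2.80 to -1.59, a change of -4.39 (SE 0.26, adjusted p = 0.00029, edgeR). At 8 hpf it had been at 343 and 304 CPM with DMSO and 266 and 246 CPM with SU5402. Both groups had thus lost most of its level by 11 hpf, and the DMSO embryos had lost more. ContigAmph14018, described above, was the other contig, with a change of -2.99 (SE 0.2, adjusted p = 0.00048, edgeR).

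**Figure D4:**
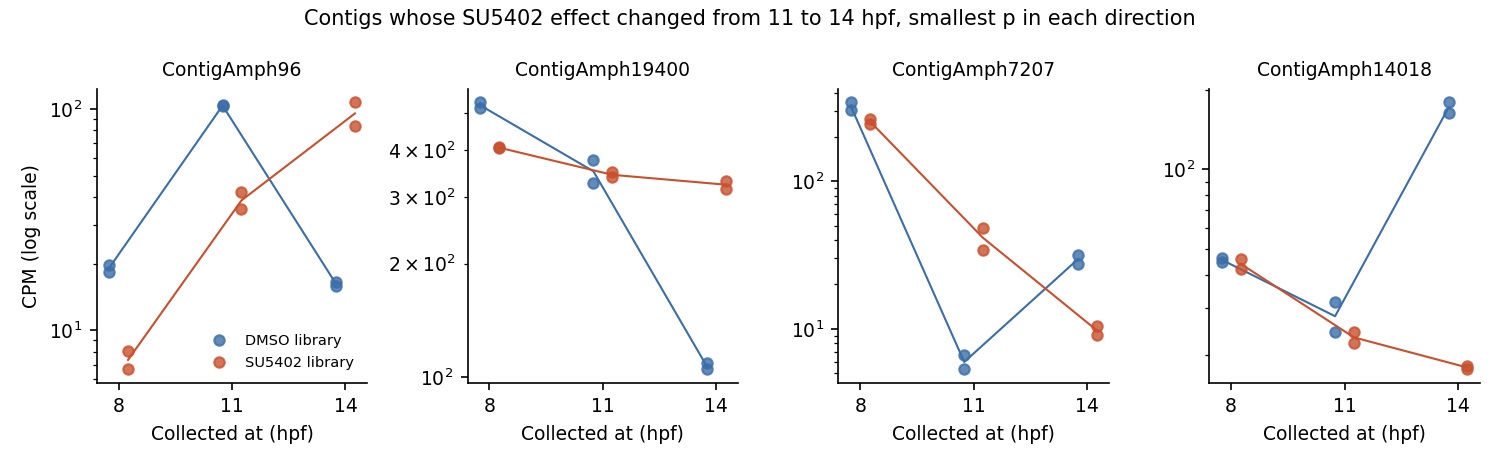
CPM on a log axis in each of the 12 early libraries for the 2 contigs with the smallest p in each direction of the change of the SU5402 effect from 11 to 14 hpf, with lines through the mean of 2 libraries per group. ContigAmph96 peaks at 11 hpf with DMSO and is highest at 14 hpf with SU5402, and the DMSO and SU5402 lines of ContigAmph7207 cross between 11 and 14 hpf.

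The counts of changed effects depended on the fit. The fit of all 24 libraries gave 3456 higher and 1579 lower, and DESeq2's Wald test gave 1737 and 802. Leaving out 1 of the 8 libraries of 11 and 14 hpf gave 142 to 531 contigs with a higher and 41 to 141 with a lower effect, and each omission cut both counts by more than 1.5 times except that of DMSO replicate 2 at 11 hpf, which left 531 of the higher. With TMM factors from contigs of at least 10 CPM the split was 527 higher and 490 lower, or 51.8% higher against 69.5%, and the median change of all contigs moved from -0.0124 to -0.149.

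The effect at 14 hpf was set against the course of control embryos in the libraries of 8 and 11 hpf, which are not in the 14 hpf contrast but share its filter, scaling and estimate of spread. In DMSO embryos, 9494 contigs (12.3%) rose between 8 and 11 hpf and 9118 (11.8%) fell. The DMSO libraries of 8 hpf had 12 PCR cycles and 33919562 and 29923338 reads. Those of 11 hpf had 15 cycles and 15187365 and 18051154 reads. Stage and library preparation cannot be told apart in this contrast. Set beside the shares of all contigs tested, those that rise in this window held a larger share of falls with SU5402 at 14 hpf, and those that fall in it a larger share of both directions. Of the 9494, 17.2% fell with SU5402 at 14 hpf and 5.62% rose, with a median log2 fold change of -0.23. Of the 9118, 17.1% rose and 9.51% fell, with a median of 0.07. Of the 58581 contigs not called in control embryos, 13.6% rose and 5.27% fell. The classes also differed in level. Their median DMSO level at 14 hpf was 7.08 CPM for the 9494, 1.94 CPM for the 9118 and 0.728 CPM for the 58581. The balance of rises and falls shifted with level over all contigs, as given above. The part of level in these shares, and in those below, was not tested.

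Contigs with steep changes in control embryos were described separately. Of 3164 contigs that fell more than 4-fold from 8 to 11 hpf in DMSO embryos, 19.7% rose with SU5402 at 14 hpf and 4.2% fell, with a median log2 fold change of 0.42. Their median level went from 2.65 CPM at 8 hpf to 0.394 CPM at 11 hpf and 0.342 CPM at 14 hpf with DMSO, and from 3.25 to 1.13 and 0.56 CPM with SU5402. Of 3265 contigs that rose more than 4-fold, 14.1% fell and 5.18% rose. With library totals, 11.6% of the contigs that rise in control embryos fell with SU5402, against 4.84% of all contigs, and 21.7% of those that fall rose, against 15.3%. Across the 77193 contigs the DMSO change from 8 to 11 hpf and the SU5402 effect at 14 hpf correlated weakly, with Pearson's r = -0.187.

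As whole profiles, the SU5402 libraries of 14 hpf lay closer to younger DMSO embryos than the DMSO libraries of 14 hpf did. Over 12330 contigs of at least 10 CPM, Pearson's r of log2 CPM with DMSO embryos of 11 hpf was 0.907 and 0.901 for the SU5402 libraries and 0.862 and 0.863 for the DMSO libraries. With DMSO embryos of 8 hpf it was 0.713 and 0.693 against 0.628 and 0.631. With DMSO embryos of 18.5 hpf the order was the other way, at 0.657 and 0.65 for SU5402 and 0.784 and 0.799 for DMSO, and so it was at 24.5 hpf, at 0.543 and 0.532 against 0.648 and 0.67. In each of these comparisons the SU5402 values and the DMSO values did not overlap. With SU5402 embryos of 11 hpf the SU5402 libraries had r of 0.882 and 0.864. These values are against the mean of a group. Against single libraries of 14 hpf, r was 0.897 to 0.917 between the conditions and 0.98 between the SU5402 replicates. Values of r against a mean and against a single library are not directly comparable. By median absolute log2 difference, the SU5402 libraries lay 0.365 to 0.409 from single DMSO libraries of 14 hpf. From the mean of DMSO embryos of 11 hpf they lay 0.43 and 0.444. These distances too set single libraries beside a mean, so which stage was nearer was not tested.

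**Figure D5:**
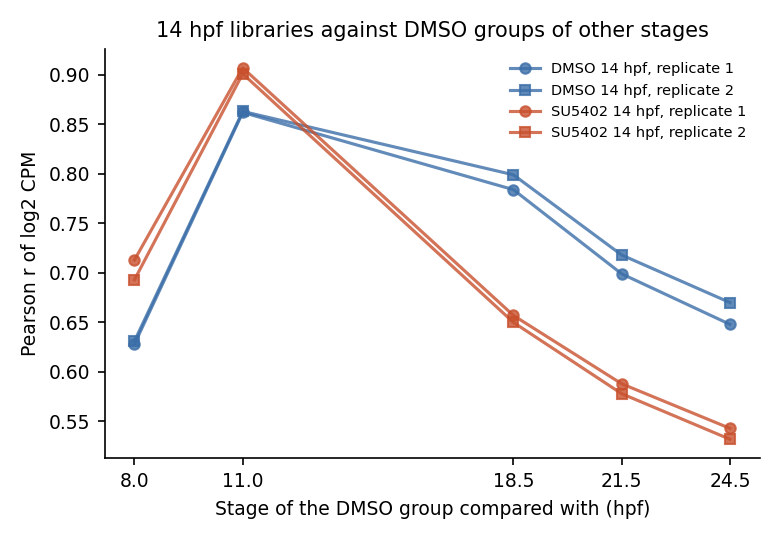
Pearson's r of log2 CPM over 12330 contigs between each 14 hpf library and the mean of the DMSO libraries of another stage. The SU5402 libraries lie above the DMSO libraries at 8 and 11 hpf and below them at 18.5, 21.5 and 24.5 hpf.

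After the same 9 h, the effect of SU5402 differed between treatment from 5 hpf and treatment from 15.5 hpf in 11.4% of contigs. In the fit of all 24 libraries, the SU5402 effect was higher in the later treatment for 4855 of 87512 contigs (5.55%) and lower for 5095 (5.82%). Of the 4855, 3640 (75%) had fallen at 14 hpf and were not called at 24.5 hpf, and 246 (5.07%) had fallen at 14 hpf and risen at 24.5 hpf. Of the 5095, 3619 (71%) had risen at 14 hpf and were not called at 24.5 hpf, and 343 (6.73%) had risen at 14 hpf and fallen at 24.5 hpf. Calls at both stages are from this fit, in which 16.3% of all contigs rose and 10.9% fell at 14 hpf. Choosing contigs by the difference between these effects in the same libraries favours such classes. A missing call at 24.5 hpf does not show that the effect was absent. With TMM factors from contigs of at least 10 CPM the counts were 2995 and 6729, or 30.8% higher against 48.8%. Replicates of the late series varied less, while this fit used a common coefficient of variation of 18.3%. The fit of the early libraries had 27.2%. The part of this shared estimate in the calls of either stage was not tested.

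The calls of the treatments were set side by side. Here calls at 14 hpf are those of the early libraries alone, and calls at 24.5 hpf those of the fit of all 24 libraries. At 24.5 hpf, 3218 contigs (3.68%) rose and 2628 (3%) fell. Of the 10041 contigs risen at 14 hpf that were tested in both fits, 13.3% rose at 24.5 hpf and 2.39% fell, against 3.78% and 2.99% of all 76797 contigs. Of the 5590 fallen contigs, 11.7% fell at 24.5 hpf and 3.09% rose. Seen from the later stage, 46% of the contigs risen at 24.5 hpf were risen at 14 hpf and 5.96% were fallen. Of those fallen at 24.5 hpf, 28.4% were fallen at 14 hpf and 10.4% were risen. Over all contigs tested in the early libraries the shares at 14 hpf were 13.1% risen and 7.24% fallen. Log2 fold changes of the treatments correlated with Pearson's r = 0.39 across the 76797 contigs.

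Of the contigs with the smallest p for this difference, some fell at 14 hpf and fell less or were not called at 24.5 hpf, and others rose at 14 hpf and fell at 24.5 hpf. Their values and tests are from the fit of 24 libraries. ContigAmph11822 had 336 and 313 reads in the DMSO libraries and 17 and 13 reads in the SU5402 libraries of 14 hpf, a log2 fold change of -4.48 (adjusted p = 1.7e-12, edgeR). At 24.5 hpf it stood at 182 and 183 CPM with DMSO and 172 and 143 CPM with SU5402, which did not pass the test (log2 fold change -0.21, SE 0.11, adjusted p = 0.31, edgeR). The difference between the treatments was 4.27 (SE 0.2, adjusted p = 1e-09, edgeR). ContigAmph14018 also fell less in the later treatment, from a mean of 1050 ± 34.4 CPM (SD, n = 2) with DMSO to 765 ± 29.6 CPM (SD, n = 2) with SU5402 at 24.5 hpf, and the difference of its effects was 2.74 (SE 0.14, adjusted p = 1e-09, edgeR).

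In the other direction, ContigAmph6401 rose with SU5402 at 14 hpf from 1.33 and 1.59 CPM to 29.9 and 28.7 CPM, while at 24.5 hpf it stood at 40.9 and 45.1 CPM with DMSO and 27.4 and 27.2 CPM with SU5402. The effects were 4.32 and -0.65, and the difference was -4.97 (SE 0.24, adjusted p = 1e-09, edgeR). ContigAmph6401 thus had a like level in SU5402 embryos of both stages and very different levels in DMSO embryos. ContigAmph16200 rose from 11.1 and 7.3 CPM to 38 and 27.3 CPM at 14 hpf and fell from 51.2 and 49.3 CPM to 3.43 and 4.64 CPM at 24.5 hpf. Its effects were 1.82 and -3.63, and they differed by -5.46 (SE 0.28, adjusted p = 1.4e-09, edgeR). The 2 contigs with the smallest p among the rises of 14 hpf rose in the later treatment too, ContigAmph24501 with a log2 fold change of 7.84 (adjusted p = 4.2e-15, edgeR) and ContigAmph54911 with 7.17 (adjusted p = 2.6e-12, edgeR). For ContigAmph24501 the difference between the treatments was -0.57 (SE 0.24) and did not pass the test (adjusted p = 0.13, edgeR).

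The counts of contigs that differed between the treatments also fell when a library was left out. The higher count was 3036 and 2769 without DMSO replicate 1 and 2 of 24.5 hpf, and 3023 and 3011 without SU5402 replicate 1 and 2 of that stage. The lower count was 3351 without DMSO replicate 2 and 3388 without SU5402 replicate 1 of 24.5 hpf, and 3369 without SU5402 replicate 1 of 14 hpf.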

How the data were processed

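Per the labels' protocols, oligo-dT beads selected mRNA from 2 µg of RNA, and PCR ran for 12 cycles (3 and 9 h libraries) or 15 (6 h). The deposited table holds raw read counts per contig for 24 libraries. The submitters' processing notes name BWA 0.6.1. How contigs were assembled and reads filtered and counted is not given in the sources used here. Of the sample columns, 0 were left unused. Contigs with few reads were left out with filterByExpr (18901 of 96094), and those kept held at least 99.79% of each library's reads. A quasi-likelihood model with 6 groups, TMM scaling and 6 residual degrees of freedom was fitted to the 12 early libraries with edgeR 4.0.16 in R 4.3.3, tested two-sided and adjusted by Benjamini-Hochberg at 0.05. Risen and fallen mean past this threshold. The late libraries, which vary less, were added only for the difference between treatments (87512 contigs). The SE of a log2 fold change was derived from its F statistic. Profiles were compared as log2 CPM with a prior count of 2. Alternatives used limma 3.58.1 and DESeq2 1.42.0. Contigs named are the 2 with the smallest p in each direction of each main comparison. The members, lists and tests were chosen with earlier results of these data known.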

Additional observations from a re-analysis of the deposited data

Results flagged for a closer look

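Several named contigs had SU5402 effects that differed between stages by the interaction test of edgeR's quasi-likelihood model, and these differences are given here on the log2 scale. Between 11 and 14 hpf the effect changed by 1.34 for ContigAmph24501 (adjusted p = 0.021, edgeR), by 3.98 for ContigAmph96 (adjusted p = 0.00026, edgeR) and by 1.63 for ContigAmph19400 (adjusted p = 0.0014, edgeR). It changed by -4.39 for ContigAmph7207 (adjusted p = 0.00029, edgeR) and by -2.99 for ContigAmph14018 (adjusted p = 0.00048, edgeR). ContigAmph24501 was already high with SU5402 at 11 hpf and went higher, whereas ContigAmph96 and ContigAmph7207 changed the direction of their effect.

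Between the early and the late treatment after 9 h, the late effect minus the early effect was 4.27 for ContigAmph11822 (adjusted p = 1e-09, edgeR), 2.74 for ContigAmph14018 (adjusted p = 1e-09, edgeR) and 0.98 for ContigAmph89888 (adjusted p = 3.5e-05, edgeR), with log2 fold changes closer to 0 at 24.5 than at 14 hpf. It was -3.12 for ContigAmph54911 (adjusted p = 0.00067, edgeR), which rose less at 24.5 hpf, -4.97 for ContigAmph6401 (adjusted p = 1e-09, edgeR) and -5.46 for ContigAmph16200 (adjusted p = 1.4e-09, edgeR). No group held 4 or more libraries, so single libraries were not tested for standing apart.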

How the results depend on the processing

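The 4 contigs named at 14 hpf kept direction and call in all 15 alternatives each, those of the change from 11 to 14 hpf in 18 and those of the difference between treatments in 17. Their choice by the smallest p in the same libraries favours this. Counts of contigs moved more. At 14 hpf, a stricter filter of 50 reads gave 6332 risen contigs, the fit of all 24 libraries 9510 fallen ones, and omitting a library 5480 to 7307 risen and 2008 to 2492 fallen. For the change from 11 to 14 hpf, no filter gave 1284 higher, the stricter filter 671 lower, DESeq2's Wald test 1737 and 802, all 24 libraries 3456 and 1579, and omitting a library 142 to 531 and 41 to 141. Between treatments, omitting a library gave 2769 to 4310 higher and 3351 to 4495 lower, and TMM factors from abundant contigs 2995 higher. Contigs read in SU5402 only numbered 1230 and 298 with minima of 5 and 20 reads and 766 to 1356 with a library omitted, and those read in DMSO only 24, 0 and 5 to 23. The causes were not tested.

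The labels do not say what a replicate number marks. With the replicate block, 11062 contigs rose and 6553 fell at 14 hpf, 1071 and 527 changed from 11 to 14 hpf, and 5431 and 5535 differed between treatments. Differences between replicate 1 and 2 correlated with r of 0.6 to 0.861 among the 5 other early groups and of -0.812 to -0.62 between these and the SU5402 pair of 14 hpf, over 11221 contigs, so the numbers of that pair may be crossed. A crossed replicate block, chosen after seeing the data, gave 16255 and 13397 contigs, 3513 and 2506, and 9350 and 8403. It kept all 15677 calls of 14 hpf. With 2 libraries a group, depth and the number of replicates limit contigs with few reads.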

Other observations

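ContigAmph68708 was singled out after its values were seen, for the largest loss of read share with SU5402 at 14 hpf. It had 797855 reads in DMSO replicate 1 of 14 hpf, or 2.36% of that library. It held 0.317% of DMSO replicate 2 and 0.265% and 0.254% of the SU5402 libraries. Its log2 fold change of -2.51 (SE 0.88) did not pass the test (adjusted p = 0.071, edgeR). A like gap stood between the SU5402 libraries of 11 hpf, at 0.147% and 1%.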
